A study of Mus musculus with 8 samples.

Results

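The 9 genes described here encode proteins that build the axon initial segment or bind the sodium channels held there: the scaffold genes Ank3 and Sptbn4, the adhesion molecule genes Nfasc and Nrcam, the fibroblast growth factor homologous factor genes Fgf11, Fgf12, Fgf13 and Fgf14, and the ubiquitin ligase gene Nedd4l. They were chosen by name, as the rows of the gene count matrix that carry these symbols, a rule that uses no measured value, although earlier results of these data were known when the genes were proposed. All 9 were found among 24015 named entries and all 9 passed the filter on low counts, with 15588 genes tested in all.

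The axon initial segment is the first stretch of the axon, where action potentials start. Ankyrin-G, the product of Ank3, ties voltage-gated sodium channels and L1-family adhesion molecules to a spectrin lattice under the membrane. Fibroblast growth factor homologous factors are not secreted and bind the cytoplasmic tail of sodium channels, and Nedd4-2, the product of Nedd4l, recognises a short proline and tyrosine motif in that tail and ubiquitinates the channel.

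Poly(A) RNA was sequenced from brain tissue of 8 C57BL/6N mice on postnatal day 7 (P7), 1 library per mouse. The mice carried a CRISPR/Cas9 deletion of 1b, a conserved non-coding regulatory interval of Scn1a, the gene of the sodium channel Nav1.1, in 1 mutant line bred on to wild-type C57BL/6N mice. WT mice (n = 2, males) carried no deleted allele, 1b+/- mice (n = 4) were deleted on 1 allele, with replicates 1 and 2 male and replicates 3 and 4 female, and 1b-/- mice (n = 2, females) were deleted on both alleles. No cell type was selected and no other agent was given. Sex and genotype therefore cannot be told apart between WT and 1b-/-. Hippocampus is the tissue given in the labels, but the study's methods speak of forebrain. The dentate granule cell gene Prox1 lay between 11.6 and 30.8 CPM (read counts put on the scale of one library size) in all 8 libraries. The 6 striatal marker genes summed to 124 to 220 CPM, so striatal RNA was present in every library beside the hippocampal markers.

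Total counts per library ran from 2947770 in 1b+/- replicate 4 to 20878772 in 1b+/- replicate 3. A floor of 3 counts corresponds to 0.145 CPM in the deepest and 1 CPM in the shallowest library, and the 9 genes had between 56 and 9869 counts in any library. Beside its depth, which sets 1b+/- replicate 4 apart, 1b+/- replicate 1 differed in its markers, although none of 20 measures (the 9 genes and 11 marker sums) passed Dixon's test for an outlier among the 4 1b+/- libraries. Its midbrain and hindbrain markers summed to 54.4 CPM, against 16.5 in 1b+/- replicate 2 and at most 10.2 in the other 6 libraries, and its telencephalon markers to 1490 CPM, the lowest of all 8. Summed neuronal markers ran from 5650 to 7120 CPM. In bulk tissue, fewer cells of a type and less RNA per cell cannot be told apart.

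Scn1a, which the deletion targets, was at 45.1 and 40.5 CPM in WT replicates 1 and 2. In 1b+/- replicates 1 to 4 it was at 26.7, 22.2, 25.4 and 15.7 CPM, and in 1b-/- replicates 1 and 2 at 3.18 and 2 CPM. The 3 genotypes did not overlap, and Scn1a followed the labels in every library. Its log2 fold change was -3.97 ± 0.32 (SE) in 1b-/- against WT, with an adjusted p of 0.000596 (edgeR quasi-likelihood test, Benjamini-Hochberg adjustment over all genes tested), and -3.07 ± 0.30 in 1b-/- against 1b+/- with an adjusted p of 0.00491. In 1b+/- against WT it was -0.90 ± 0.21 and missed the threshold (edgeR adjusted p = 0.381).

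The question put to the 9 genes was whether the transcripts of the partners of Nav1.1 moved with genotype while Scn1a fell. None of the 9 passed an adjusted p of 0.05 in any comparison. In 1b+/- against WT, 0 of 9 were called by edgeR, where 0.0834% of all genes tested were called. In 1b-/- against WT, 0 of 9 were called against a background of 0.00642%, and in 1b-/- against 1b+/- 0 of 9 were called against 0.00642%, which in both cases is Scn1a alone among 15588 genes. At an unadjusted p under 0.05, 1 of 9 (Fgf14) was reached in 1b+/- against WT, with a background of 4.34%. In 1b-/- against WT it was 0 of 9 with a background of 1.64%, and in 1b-/- against 1b+/- 0 of 9 with a background of 1.23%. The edgeR likelihood ratio test and DESeq2 likewise called 0 of 9 in each of the 3 comparisons. With both tools 0 of 9 had an unadjusted p under 0.05. In the same order of comparisons, the likelihood ratio test called 64, 23 and 1 of all genes tested, and DESeq2 24, 13 and 1. An unadjusted p under 0.05 was reached by 4.88%, 2.22% and 1.72% of all genes with the likelihood ratio test. With DESeq2 it was 3.54%, 1.16% and 0.841%. These comparisons share libraries, since each genotype enters a pair of them. The p-values measure the spread between these mice, of which 2 of the 3 groups held 2.

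The precision of these values sets what could be seen. Over the 9 genes and 3 comparisons, the 27 intervals at 95% lay between -0.70 and 0.87 on the log2 scale, which is a fold between 0.616 and 1.83. None reached a log2 change of 1 in either direction, and 26 of 27 held 0. A smaller change could go undetected with 2 WT and 2 1b-/- mice. The median log2 fold change of the 9 was -0.11 (1b+/- against WT), -0.02 (1b-/- against WT) and 0.07 for the 1b-/- against 1b+/- comparison. That of all genes tested was 0.01, -0.01 and 0.

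**Figure D1:**
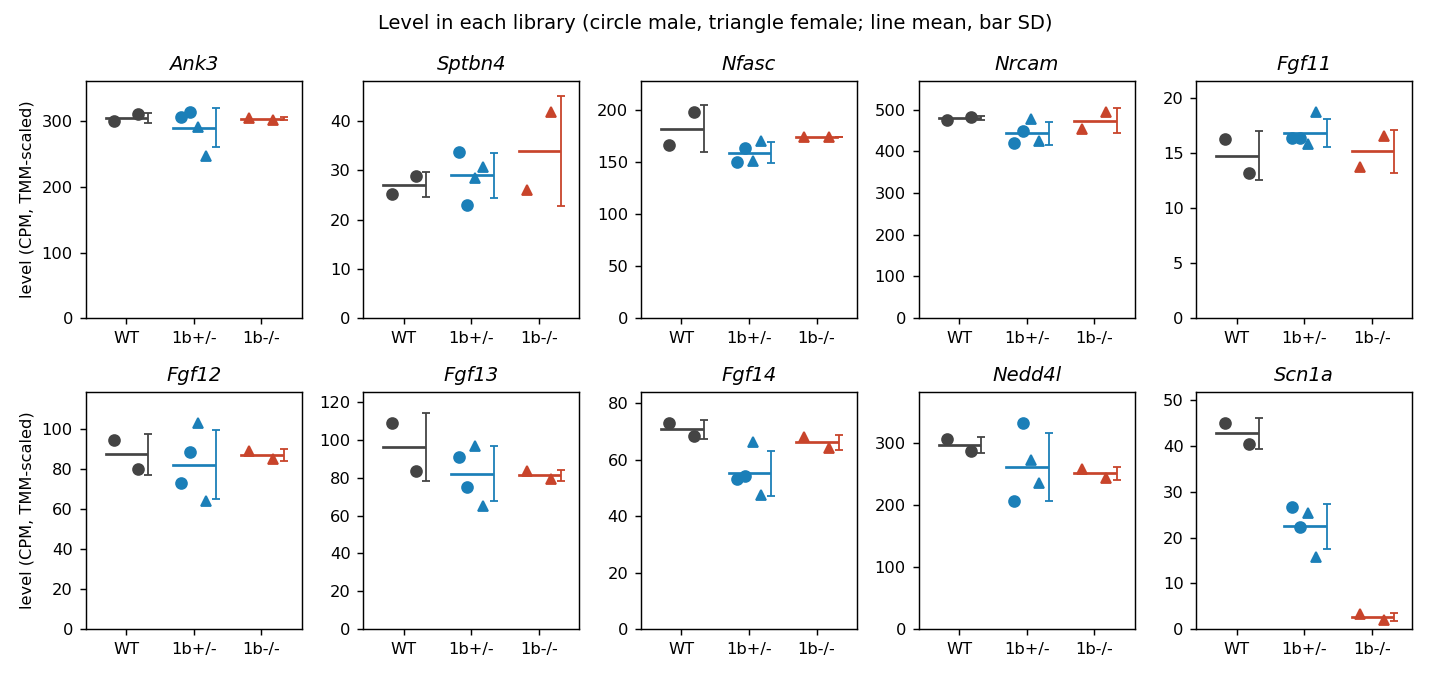
Level of each of the 9 genes and of Scn1a in every library, in CPM scaled by trimmed mean of M-values (TMM), by genotype. Circles are males and triangles females, the line is the group mean and the bar the SD. Scn1a separates the 3 genotypes, whereas for the 9 genes the points of the genotypes mostly share 1 range. In 1b+/- against WT the groups do not overlap for Fgf14 (12.3% of all genes tested do not). In 1b-/- against WT they do not for Fgf13, Fgf14 and Nedd4l (23.6% of all genes). In 1b-/- against 1b+/- they do not for Nfasc (7.39% of all genes).

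**Figure D2:**
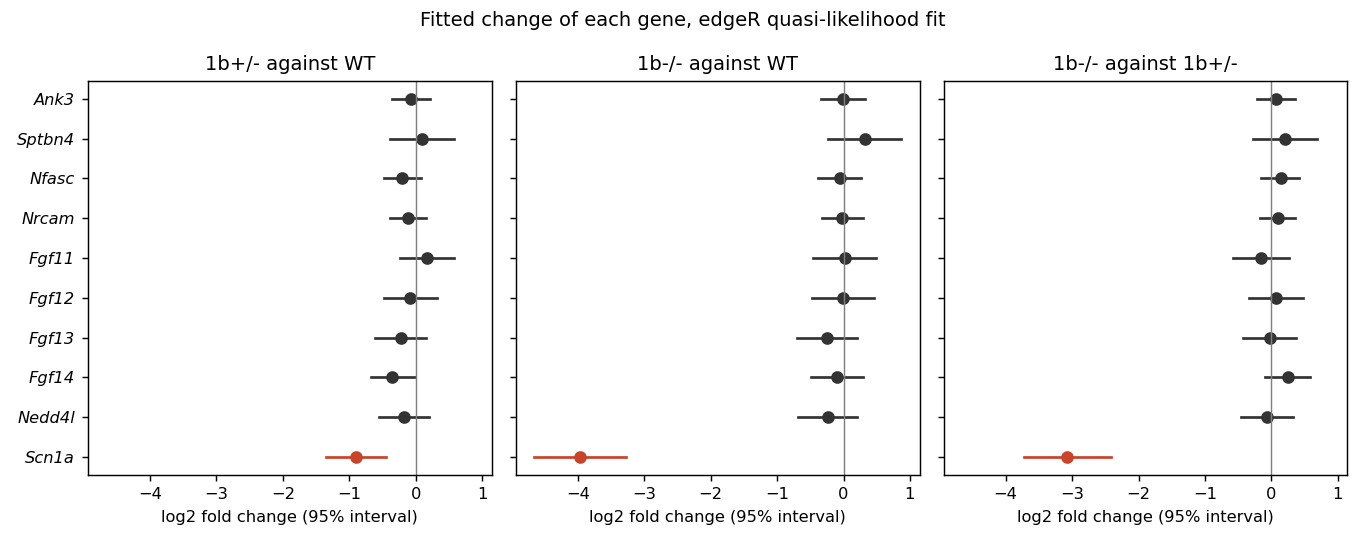
Fitted log2 fold change (point) and 95% interval (line) of the 9 genes and of Scn1a in the 3 genotype comparisons. The intervals of the 9 genes lie between -0.70 and 0.87, and the 1 interval that misses 0 is that of Fgf14 in 1b+/- against WT, whereas Scn1a is at -0.90, -3.97 and -3.07.

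Ank3 encodes ankyrin-G, the scaffold that organises the segment and to which the channels bind. In the mm9 annotation used here (GENCODE M1) it spans 493 kb at chr10:68996970-69490184 on the plus strand, with 7 transcripts and 10.6 kb of exon. Those transcript models code for up to 5883 bases and so leave out the long exon of the giant neuronal form. Whether the authors' gene models counted reads in that exon is not given in the sources used here.

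Ank3 was at 300 and 311 CPM in WT replicates 1 and 2. It was at 306, 314, 292 and 248 CPM in 1b+/- replicates 1 to 4 and at 306 and 302 CPM in 1b-/- replicates 1 and 2. With 1b+/- replicate 4 set aside, all libraries lay within 292 to 314 CPM, and the genotypes overlapped. The log2 fold change was -0.01 in 1b-/- against WT (95% interval -0.34 to 0.33) and -0.07 in 1b+/- against WT (-0.36 to 0.22), and neither was called (edgeR adjusted p = 1 for both). Sex as a covariate turned these to 0.19 and 0.02.

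The site on the channels that ankyrin-G binds lies in the cytoplasmic loop between the second and the third domain. Its coding bases are shown for the 4 brain channel genes because they are the contact that these scaffold genes serve. They come from annotated coding transcripts. Their positions in mm9 (NCBIM37), within 1 coding exon each, are chr2:66155915-66155944 (minus strand) for Scn1a, chr2:65555841-65555870 (plus) for Scn2a1, chr2:65333034-65333063 (minus) for Scn3a and chr15:100846442-100846471 (plus) for Scn8a. All 30 bases belong to the site, so all are in capitals, 5′ to 3′.
Scn1a: CCCATTGCTGTGGGAGAGTCTGACTTTGAG
Scn2a1: CCCATTGCTGTGGGAGAGTCTGACTTTGAA
Scn3a: CCAATTGCCGTGGGAGAGTCTGACTTTGAA
Scn8a: CCCATTGCTGTGGGCGAGTCTGATTTCGAG
Scn1a shared 29 of 30 bases with Scn2a1, 27 with Scn3a and 27 with Scn8a. The other 3 channels that carry the site were not called in any of the 3 comparisons (edgeR adjusted p = 1 each). In 1b-/- against WT their log2 fold changes were 0.05 ± 0.16 (SE) for Scn2a1, 0.06 ± 0.17 for Scn3a and 0.17 ± 0.17 for Scn8a.

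Sptbn4 encodes βIV-spectrin, which links ankyrin-G to the actin rings of the axon. It lies at chr7:28141402-28232705 on the minus strand of mm9, under the older symbol Spnb4. Sptbn4 was at 25.2 and 28.8 CPM in WT replicates 1 and 2, at 33.8, 23, 28.4 and 30.7 CPM in 1b+/- replicates 1 to 4 and at 26.1 and 41.8 CPM in 1b-/- replicates 1 and 2. The highest value, in 1b-/- replicate 2, rested on 167 counts, and the other 1b-/- library lay within the WT range. The fit gave 0.32 ± 0.25 (SE) in 1b-/- against WT (95% interval -0.24 to 0.87, edgeR adjusted p = 1). That value rests on 1 library: it fell to -0.05 when 1b-/- replicate 2 was left out and reached 0.63 when 1b-/- replicate 1 was. Over all 8 libraries Sptbn4 varied the most of the 9, with a highest to lowest ratio of 1.82 and a coefficient of variation (CV) of 19.9%. It was also the least expressed of them per exon length. An annotated coding gene, Gm20479, overlaps it, and 0.937% of its 50-base windows occurred in another gene, so a small part of its reads could be assigned elsewhere.

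Nfasc and Nrcam encode L1-family adhesion molecules, held at the segment and at nodes of Ranvier through a cytoplasmic site that binds ankyrin. That site is shown with its flanks because it is what makes these genes partners of Ank3, with the 15 bases of the site in capitals and all 4 genes of the family given, 5′ to 3′ in the coding direction. The positions in mm9 (NCBIM37) are chr1:134467069-134467113 (minus strand) for Nfasc, chr12:45699458-45699502 (plus) for Nrcam, chrX:71100446-71100490 (minus) for L1cam and chr6:103679228-103679272 (plus) for Chl1, each inside 1 coding exon.
Nfasc: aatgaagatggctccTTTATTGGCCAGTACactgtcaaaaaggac
Nrcam: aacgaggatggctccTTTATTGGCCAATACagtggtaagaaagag
L1cam: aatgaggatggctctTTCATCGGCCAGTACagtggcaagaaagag
Chl1: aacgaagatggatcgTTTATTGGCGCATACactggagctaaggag
Nfasc and Nrcam shared 14 of 15 bases within the site and 36 of 45 over the whole stretch. Outside the 9, L1cam and Chl1 were not called in any of the 3 comparisons. Their log2 fold changes in 1b-/- against WT were -0.03 ± 0.17 (SE) for L1cam and -0.10 ± 0.17 for Chl1 (edgeR adjusted p = 1 for both).

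Nfasc, which spans chr1:134461268-134638374 on the minus strand, was at 166 and 198 CPM in WT replicates 1 and 2. In 1b+/- replicates 1 to 4 it was at 150, 164, 151 and 171 CPM, and in both 1b-/- libraries at 175 CPM. The 2 1b-/- libraries lay above all 4 1b+/- libraries and between the 2 WT libraries. The log2 fold change was 0.14 ± 0.13 (SE) in 1b-/- against 1b+/-, and was not called (edgeR adjusted p = 1). Nfasc was the 1 of 9 whose groups did not overlap in that comparison, where 7.39% of all genes tested did not overlap in either direction. Against WT it was -0.20 ± 0.13 in 1b+/- and -0.06 ± 0.15 in 1b-/-. The gene makes a neuronal form and a glial form found at paranodes, which a count per gene does not separate. The myelin genes Mag and Mobp were near 0 at this age, with at most 1.06 and 0.992 CPM, and the oligodendrocyte list, with 10 of 10 markers in the table, summed to 168 to 189 CPM in WT, 216 to 241 in 1b+/- and 185 to 207 in 1b-/-. Their part in the Nfasc values was not tested.

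Nrcam, at chr12:45429872-45702951 on the plus strand, was at 476 and 483 CPM in WT replicates 1 and 2. Its levels were 421, 448, 478 and 424 CPM in 1b+/- replicates 1 to 4 and 452 and 494 CPM in 1b-/- replicates 1 and 2. All 3 genotypes overlapped, and Nrcam was the steadiest of the 9, with a ratio of highest to lowest library of 1.17 and a CV of 6%. Among the 4583 genes with a mean of at least 50 CPM the median CV was 11.8% and the median ratio 1.41. Its log2 fold change was -0.02 in 1b-/- against WT (95% interval -0.33 to 0.29) and -0.11 in 1b+/- against WT (-0.38 to 0.15), with no call (edgeR adjusted p = 1 for both).

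The 4 homologous factors bind the tail of sodium channels and set how they inactivate. None of them shares a 50-base window with another of the 9 genes, so reads of this length within their exons tell the 9 apart. Set against all annotated coding transcripts, 0.788% of the Fgf13 windows occurred in other genes, and none of those of Fgf11, Fgf12 and Fgf14. Annotated genes overlap Fgf13 and Fgf14, among them the coding gene Gm17615 at Fgf14. Fgf11 spans 5.79 kb at chr11:69609570-69615359 and Fgf14 spans 699 kb at chr14:124377129-125076349, although their exons sum to 3.04 kb and 4.18 kb. Fgf12 lies at chr16:28160206-28445313 and Fgf13 at chrX:56315322-56821248, and all 4 are on the minus strand of mm9. Each gene makes several forms that differ in their first exon and which counts per gene do not separate.

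Fgf14, whose human counterpart is mutated in a spinocerebellar ataxia, was at 73.2 and 68.3 CPM in WT replicates 1 and 2. It was at 53.1, 54.1, 66.4 and 47.4 CPM in 1b+/- replicates 1 to 4 and at 67.9 and 64.3 CPM in 1b-/- replicates 1 and 2. All 4 1b+/- libraries lay below both WT libraries, with 1b+/- replicate 3 close to them. The 1b-/- libraries lay nearer to WT than most 1b+/- libraries did. Fgf14 was the 1 of 9 whose groups did not overlap in 1b+/- against WT, where 12.3% of all genes tested did not overlap. The fit gave -0.35 ± 0.15 (SE) in 1b+/- against WT (95% interval -0.68 to -0.01, unadjusted p = 0.0434, edgeR adjusted p = 1). In 1b-/- against WT it gave -0.10 ± 0.18 (-0.49 to 0.30), and in 1b-/- against 1b+/- 0.25 ± 0.16 (-0.09 to 0.59), neither called.

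Under 18 other settings the 1b+/- against WT value of Fgf14 kept its direction, between -0.45 and -0.23. Its unadjusted p stayed under 0.05 in 4 of 18, and ran from 0.0154 without 1b+/- replicate 3 to 0.204 without 1b+/- replicates 1 and 4, where the value was -0.23. The adjusted p ran from 0.897 to 1. Those libraries also held the lowest and the second lowest Fgf14 level of all 8. The oligodendrocyte markers given above were higher in all 4 1b+/- libraries than in the other 4, and so were the astrocyte markers (8 of 8 in the table), which summed to 1070 to 1170 CPM in 1b+/-, 857 and 1060 in WT and 918 and 949 in 1b-/-. The neuronal markers (8 of 8) summed to 5650 to 6860 CPM in 1b+/-, below both WT libraries (6920 and 6970), with 6430 and 7120 in 1b-/-. The hippocampal markers (8 of 8) summed to 376 to 469 CPM in 1b+/-, also below both WT libraries (527 and 549), with 406 and 593 in 1b-/-. Nrp2 alone gave 201 to 376 CPM of that sum, and Lhx9 was highest, at 106 CPM, in 1b+/- replicate 1. The choroid plexus markers (7 of 7) summed to 265, 98.9, 243 and 1030 CPM in 1b+/- replicates 1 to 4. They summed to 1020 and 1080 CPM in WT and 484 and 897 in 1b-/-. The vascular and meningeal markers (9 of 9) were highest in 1b+/- replicate 1 (2090 CPM), followed by 1b+/- replicate 2 (1250). The part of depth and of tissue makeup in the Fgf14 value was not tested.

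Fgf13, the X-linked factor gene, was at 109 and 83.5 CPM in WT replicates 1 and 2. It was at 91.2, 75.3, 97 and 65.1 CPM in 1b+/- replicates 1 to 4 and at 83.5 and 79.4 CPM in 1b-/- replicates 1 and 2. The groups overlapped between WT and 1b+/-, and WT replicate 2 and 1b-/- replicate 1 were equal at the precision given. The log2 fold change was -0.25 ± 0.21 (SE) in 1b-/- against WT (95% interval -0.70 to 0.21, edgeR adjusted p = 1) and -0.22 ± 0.18 in 1b+/- against WT. Both values rest on WT replicate 1, the highest library: without it they were -0.03 and -0.01, and without WT replicate 2 they were -0.42 and -0.40. WT mice were male and 1b-/- mice female, so sex and genotype cannot be told apart in that comparison. Within 1b+/-, the log2 fold change of Fgf13 in females against males was -0.02 (-0.51 to 0.46), with the females at 97 and 65.1 CPM. The part of sex in the Fgf13 values was not tested.

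Fgf12 was at 94.3 and 80 CPM in WT replicates 1 and 2, at 72.9, 88.4, 103 and 63.8 CPM in 1b+/- replicates 1 to 4 and at 88.9 and 84.9 CPM in 1b-/- replicates 1 and 2. The 1b+/- libraries reached both above and below all others. The log2 fold change was -0.01 in 1b-/- against WT (95% interval -0.47 to 0.46, edgeR adjusted p = 1).

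Fgf11, the least counted of the 9, was at 16.3 and 13.2 CPM in WT replicates 1 and 2. It was at 16.4, 16.4, 15.8 and 18.7 CPM in 1b+/- replicates 1 to 4, and at 13.7 and 16.5 CPM in 1b-/- replicates 1 and 2. Its highest value, in 1b+/- replicate 4, rested on 56 counts. The fit gave 0.17 ± 0.18 (SE) for 1b+/- against WT and 0.02 ± 0.22 for 1b-/- against WT (edgeR adjusted p = 1 for both).

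Per kb of annotated exon, Fgf12 took the largest share of the summed level of the 4 factor genes in every library, from 36.7% to 43.6%. Fgf13 took 28.5% to 35.2%, Fgf14 19.7% to 24.2% and Fgf11 6.4% to 11.3%. The order held in all 8 libraries, but the first place depended on the length used. With the longest transcript in place of all exons, the median share was 39.9% for Fgf13 and 32.5% for Fgf12. By genotype, the Fgf14 share was 21.7% and 24.2% in WT, 19.7% to 20.8% in 1b+/- and 23.1% and 22.6% in 1b-/-, so the 1b+/- libraries lay below the others here as well. This share rests on the same counts as the Fgf14 level and is no separate measurement.

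**Figure D3:**
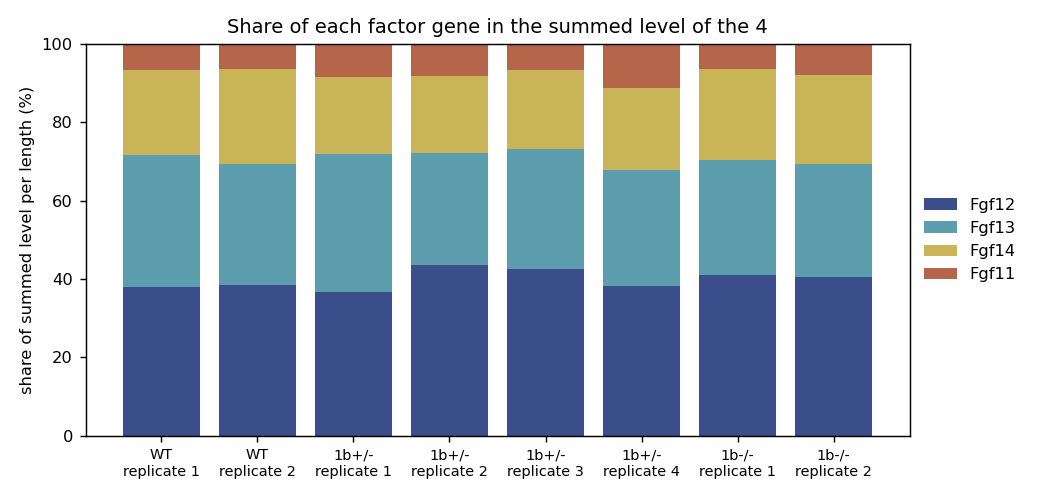
Share of Fgf11, Fgf12, Fgf13 and Fgf14 in their summed level per kb of exon, in percent, for each of the 8 libraries (stacked bars that sum to the whole). Fgf12 lies between 36.7% and 43.6%, Fgf14 between 19.7% and 20.8% in 1b+/- and between 21.7% and 24.2% in the other libraries, and Fgf11 reaches 11.3% in 1b+/- replicate 4.

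Nedd4l encodes Nedd4-2, a ubiquitin ligase that binds its substrates through a proline and tyrosine (PY) motif. The motif in the tail of the channels is shown because it is what the ligase reads, with its 12 coding bases in capitals, 5′ to 3′. Scn8a is not shown because the search found no such stretch in its annotated coding transcripts. That search does not settle whether the channel carries the motif. The positions in mm9 are chr2:66110999-66111040 (minus strand) for Scn1a, chr2:65602767-65602808 (plus) for Scn2a1 and chr2:65298677-65298718 (minus) for Scn3a, each inside 1 coding exon.
Scn1a: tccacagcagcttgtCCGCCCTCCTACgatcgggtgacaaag
Scn2a1: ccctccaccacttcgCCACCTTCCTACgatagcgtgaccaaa
Scn3a: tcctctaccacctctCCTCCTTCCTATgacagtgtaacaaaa
Scn1a shared 10 of 12 motif bases with Scn2a1 and 9 with Scn3a.

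Nedd4l was at 306 and 287 CPM in WT replicates 1 and 2. It was at 206, 332, 272 and 235 CPM in 1b+/- replicates 1 to 4 and at 258 and 243 CPM in 1b-/- replicates 1 and 2. The lowest and the highest of all 8 libraries were both 1b+/-, and both 1b-/- libraries lay below both WT libraries. The log2 fold change was -0.24 ± 0.20 (SE) in 1b-/- against WT (95% interval -0.69 to 0.20, unadjusted p = 0.261, edgeR adjusted p = 1) and -0.18 ± 0.17 in 1b+/- against WT. Nedd4l, Fgf13 and Fgf14 were the 3 of 9 genes whose groups did not overlap between 1b-/- and WT, all lower in 1b-/-. For Fgf13 this is a difference only beyond the 3 digits printed, since the nearest WT and 1b-/- libraries were both at 83.5 CPM. In this comparison of 2 against 2, 23.6% of all genes tested did not overlap in either direction. The closely related ligase gene Nedd4 had a log2 fold change of -0.02 ± 0.15 in the same comparison.

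Set side by side per kb of exon, Nrcam was the most abundant of the 9 transcripts, at 55.4 CPM per kb on average over the 8 libraries (range 50.8 to 59.6). Nedd4l followed at 29 (22.3 to 36.1), Ank3 at 28 (23.3 to 29.6), Fgf12 at 27.4 (20.7 to 33.4), Fgf13 at 21.3 (16.2 to 27.2), Nfasc at 16.3 (14.5 to 19.1) and Fgf14 at 14.8 (11.3 to 17.5). Fgf11 at 5.21 (4.33 to 6.14) and Sptbn4 at 3.05 (2.36 to 4.29) were lowest. Neighbours in this order had ranges that did not overlap for Nrcam over Nedd4l, Fgf14 over Fgf11 and Fgf11 over Sptbn4. The others overlapped, and Nedd4l lay above Ank3 in 5 of 8 libraries and Ank3 above Fgf12 in 5 of 8, so these 3 cannot be ordered. With the longest transcript as the length, Fgf13 moved from 21.3 to 34.2. Scn1a itself was at 3.86 CPM per kb in WT and 0.234 in 1b-/-, and in WT all of the 9 but Sptbn4 had a mean above it. With the longest transcript as the length, Fgf11 in WT (4.85) was also below Scn1a (5.1).

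**Figure D4:**
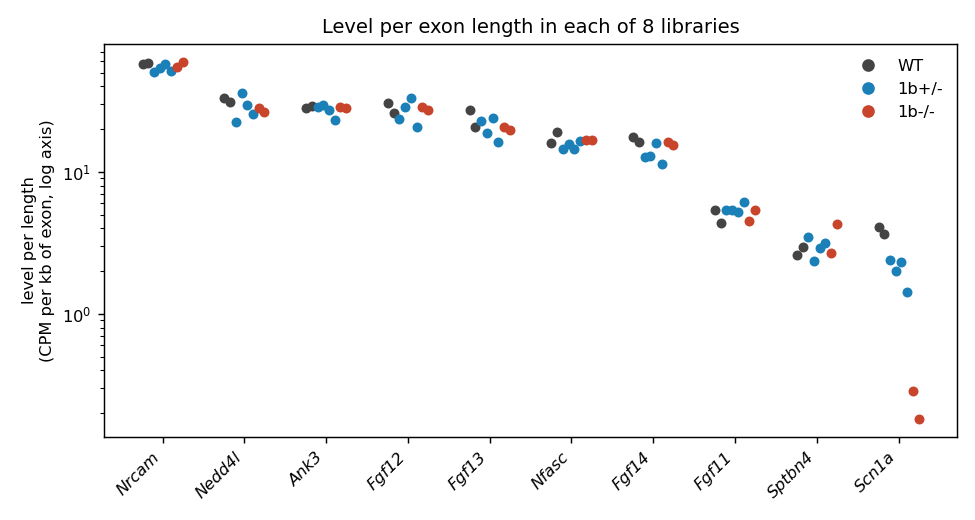
Level of the 9 genes and of Scn1a in CPM per kb of exon (log axis) in each of the 8 libraries, coloured by genotype and ordered by mean. Nrcam lies between 50.8 and 59.6 and Sptbn4 between 2.36 and 4.29, whereas Scn1a falls from 3.65 to 4.07 in WT to 0.181 to 0.287 in 1b-/-.

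Across libraries, the 9 genes differed in how steady they were. The CV over all 8 was 6% for Nrcam, 7.1% for Ank3 and 9.05% for Nfasc, and 10.9% for Fgf11, 14.5% for Fgf12, 14.7% for Fgf14, 15.2% for Nedd4l, 15.9% for Fgf13 and 19.9% for Sptbn4. Of the 9 genes, 4 (Ank3, Fgf12, Fgf13 and Fgf14) had their lowest level in 1b+/- replicate 4, the shallowest library, and 3 (Nfasc, Nrcam and Nedd4l) in 1b+/- replicate 1, the library high in midbrain and hindbrain markers. How many of all genes had their lowest level in these libraries was not counted, and the part of these features in the levels was not tested. The most alike pairs, by the root mean square difference of their centred log2 CPM over 8 libraries, were Ank3 with Nrcam (0.102), Nfasc with Nrcam (0.115) and Fgf12 with Fgf14 (0.143), and the least alike was Sptbn4 with Nedd4l (0.428). Among 9596 genes compared, the 2 nearest in pattern to Ank3 were Asb13 (0.04) and Ppt1 (0.041), to Sptbn4 Clpb (0.079) and Blcap (0.083), and to Nrcam Lrrc49 (0.034) and Map2k5 (0.041). For Nfasc they were an entry whose symbol had been turned into a date (0.037) and Mterfd1 (0.04). Those of the factor genes were Zfp870 (0.032) and Mrpl13 (0.057) for Fgf11, Actr2 (0.057) and Zfp120 (0.065) for Fgf12, Tcerg1l (0.067) and Smim18 (0.068) for Fgf13, and Tada2a (0.032) and Ppfia2 (0.049) for Fgf14. Nedd4l was nearest to Ubap2 (0.063) and Ctxn1 (0.063). The median difference to all genes compared lay between 0.197 for Nrcam and 0.301 for Sptbn4.

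A trend per deleted allele was fitted over the 3 genotypes. Its slope lay between -0.12 for Fgf13 and Nedd4l and 0.16 for Sptbn4 on the log2 scale. The Sptbn4 slope was 0 without 1b-/- replicate 2 and 0.27 without 1b-/- replicate 1, and that of Fgf13 was -0.02 without WT replicate 1. In the trend, edgeR called 0 of 9, against 0.0385% of all genes. An unadjusted p under 0.05 was reached by 0 of 9, against 1.73%, and the smallest unadjusted p was 0.215 (Sptbn4, adjusted p = 1). The slope of Scn1a was -1.72 ± 0.27 (SE), which also missed the threshold (edgeR adjusted p = 0.0672). Within 1b+/-, females differed from males by -0.20 (Ank3) to 0.11 (Fgf14). Here too edgeR called 0 of 9, against 0.0321% of genes, and an unadjusted p under 0.05 was reached by 0 of 9, against 2.66%.

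Among the wider machinery, Scn1a was the 1 gene called, and with so few mice a change in the others could go undetected. The 9 genes aside, lists of ankyrins, spectrins and L1-family genes, of other segment and node components, of sodium channel subunits, of channel-binding and kinase genes and of the ubiquitin ligase pathway held 65 genes, of which 63 were tested. In 1b+/- against WT none of the 63 was called. In each comparison with 1b-/- mice the 1 gene called was Scn1a, lower in 1b-/-. Without Scn1a, 0 of 62 were called by edgeR in each comparison. The share of all genes called was 0.0834% in 1b+/- against WT and 0.00642%, which is Scn1a alone, in each comparison with 1b-/- mice. An unadjusted p under 0.05 was reached by 3 of 62 in 1b+/- against WT, near the 4.34% of all genes, by 0 in 1b-/- against WT (1.64% of all genes) and by 1 in 1b-/- against 1b+/- (1.23%). The genes were Lgi1, Map6 and Kcna2 in the first comparison and Lgi1 in the last, with an adjusted p of 1 each, and nothing about the lists is read from them. The median log2 fold change of the 62 was -0.09, -0.05 and 0.05. Among channel subunits with a mean of at least 1 CPM, the β subunit gene Scn2b had the highest fitted value in 1b-/- against WT, 0.37 ± 0.26, at 19.7 CPM in WT and 25.5 CPM in 1b-/-. In the ligase list it ran from -0.27 ± 0.20 for Sgk1, a kinase that phosphorylates Nedd4-2, to 0.20 ± 0.22 for its relative Sgk3 (edgeR adjusted p = 1 for these 3). In that comparison the highest value among ankyrins and spectrins was that of Sptan1 (0.11 ± 0.17). The ends of the other lists were Bcan (0.31 ± 0.36) and Cntn2 (-0.24 ± 0.26) among segment and node components, and Mapk8ip2 (0.11 ± 0.25) and Wee1 (-0.36 ± 0.32) among channel-binding and kinase genes, none of them called.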

How the data were processed

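The authors deposited a matrix of raw read counts per gene for 8 libraries (stranded mRNA libraries, single-end reads). Per the labels and the study's methods, reads were aligned to mm9 with STAR 2.7.2 and assigned with featureCounts. The strand setting, the treatment of reads matching several genes and the annotation release are not given in the sources used here. Genotype and sex came from the labels. Counts were fitted for every gene that reached 1 CPM in 1 or more libraries, in edgeR 4.0.16 (R 4.3.3) with TMM scaling and the quasi-likelihood test, with 1 model over the 3 genotypes and p-values adjusted by Benjamini-Hochberg over 15588 genes. The threshold was an adjusted p of 0.05. DESeq2 1.42.0 and the edgeR likelihood ratio test were alternatives. Levels per kb divide CPM by the summed exon length of GENCODE M1 (mm9), where Sptbn4 and other spectrins were matched through RefSeq synonyms. Sequences were read from the coding transcripts of GENCODE M1, and their positions in mm9 from the annotated exons. Intervals are at 95% and floors are 3 counts, and the floors cover counting error only. The members and lists were chosen with earlier results of these data known. Named were the 9 genes, Scn1a, any pathway gene past the threshold, the pathway genes with the highest and the lowest log2 fold change in 1b-/- against WT in each list (mean of at least 1 CPM), and for each of the 9 the 2 genes nearest in pattern (mean of at least 10 CPM). Other genes (Scn2a1, Scn3a, Scn8a, L1cam, Chl1, Nedd4, Lgi1, Map6, Kcna2 and the cell type markers) were named after their values were seen. One pathway gene that this rule names is not reported here.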

Additional observations from a re-analysis of the deposited data

How the results depend on the processing

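No paired analysis was possible because replicate numbers follow the order of deposit and pair no animals. No alternative called any of the 9 genes in any comparison. Of 621 recomputed fold changes, 588 kept their direction and 33 changed it, none of them past the threshold. Directions were compared after rounding to 2 decimals, a rule set after seeing the data, and unrounded signs changed in 53. The alternative without 1b+/- replicates 1 and 4 was chosen after seeing the data. In 1b+/- against WT, the value became 0.02 (sex as a covariate) and 0.03 (males only) for Ank3, and without those 2 libraries -0.06 for Sptbn4, 0.14 for Fgf12 and 0.03 for Nedd4l. In 1b-/- against WT, upper quartile scaling gave 0.01 for Ank3 and 0.01 for Fgf12, and sex as a covariate gave 0.19 for Ank3 and -0.04 for Fgf11, whose slope became -0.01. Without the 2 libraries, Fgf12 in 1b-/- against 1b+/- was -0.13. Leaving out 1 library at a time, values in 1b-/- against WT ran over Ank3 -0.03 to 0.02, Sptbn4 -0.05 to 0.63, Nfasc -0.18 to 0.07, Nrcam -0.08 to 0.04, Fgf11 -0.12 to 0.19 and Fgf12 -0.12 to 0.12. Values in 1b-/- against 1b+/- ran over Sptbn4 -0.15 to 0.53, Fgf12 -0.02 to 0.21, Fgf13 -0.11 to 0.07 and Nedd4l -0.16 to 0.08. The slope ran, per gene, over Nfasc -0.06 to 0.05, Nrcam -0.06 to 0.02, Fgf11 -0.07 to 0.1 and Fgf14 -0.13 to 0.03. Values in 1b+/- against WT ran over Fgf12 -0.2 to 0.05. Over all genes, the 13 calls of 1b+/- against WT became 57 with no filter, 64 by the likelihood ratio test, 24 by DESeq2, 7 without the 2 libraries, 0 with sex as a covariate or in males only, and 0 to 30 leaving out 1 library. The 1 call of 1b-/- against WT became 33, 23, 13 and 2 under the first 4 of these, 15 with the compared groups alone, and 1 to 16. That of 1b-/- against 1b+/- became 0 to 1. The 6 slope calls became 24, 31, 3 and 1 under the first 4, 3 with upper quartile scaling, 0 with sex as a covariate, and 0 to 13. In the pathway lists, the likelihood ratio test called 1 gene in 1b+/- against WT, and leaving out 1 library gave 0 to 1 in 1b-/- against 1b+/-. With the longest transcript the Fgf12 and Fgf13 shares were 32.5% and 39.9%. The causes were not tested. Depth limits 1b+/- replicate 4 and 1b-/- replicate 2, the shallowest libraries, where Fgf11 rests on 56 and 66 counts.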
